A study of Araneus ventricosus with 24 samples.

Results

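The comparison described here sets the silk gland preparation against the cerebral ganglia of orb-weaving spiders (Araneus ventricosus) that had been exposed to cadmium. Its members are 6 RNA libraries, 3 from ampullate gland and 3 from cerebral ganglia, taken by their labels from a table of 24 columns, of which 20 hold distinct values. The series measured messenger RNA of both tissues after 30 days of exposure to cadmium, to lead, to both metals, or to neither. Exposed and unexposed spiders gave 3 columns per tissue and treatment, so the table holds 8 groups of 3. The groups used here are cadmium gland, cadmium ganglia, untreated gland and untreated ganglia, with 3 libraries each, and for side-by-side values the gland and ganglia libraries of lead and of both metals, of which 2 per tissue and treatment are distinct. Doses, sexes, ages and the number of spiders behind a library were not given in the sources used here, and nothing says that libraries came from separate animals. All p-values below therefore measure the spread between libraries, which may be technical.

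An orb weaver carries several kinds of silk gland. Major ampullate glands make dragline silk and minor ampullate glands a second structural thread, aciniform glands make wrapping silk, pyriform glands the cement of attachment discs, flagelliform glands the capture spiral core and aggregate glands its glue, each built from its own spidroins, which are long repetitive proteins rich in a few amino acids. A silk gland cell is a secretory cell that loads amino acids, translates spidroins at the endoplasmic reticulum (ER) and passes them to a duct where ions and acid are adjusted. The cerebral ganglia are the fused brain of the spider, which lies in the front body among muscles and near the venom glands, and its neurons use acetylcholine, glutamate, GABA, monoamines and peptides. Cadmium is a non-essential metal that binds thiols, and animals commonly answer it with metallothioneins, glutathione enzymes and heat shock proteins.

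Values are given per cluster, an assembled group of transcripts that carries the name of its best database hit. Several clusters can be fragments or close copies of 1 gene, above all for repetitive spidroins and for actins, so clusters of 1 name are not independent and reads may be split between them. They are told apart here by their length in bases. Levels are CPM, counts relative to the scaled library size, and differences are log2 gland minus ganglia with a standard error (SE) back-calculated from the test. A cluster is called when its adjusted p in edgeR's quasi-likelihood test, with Benjamini-Hochberg adjustment over all 51904 clusters tested, is under 0.05. Library totals ran from 17074077 to 20954478 counts in the glands and from 16055611 to 18206370 in the ganglia, and 29016 of 142219 clusters (20.4%) had an informative name.

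The gland and ganglia libraries of cadmium-exposed spiders held different transcriptomes. The libraries of a tissue resembled each other more than those of the other tissue: across clusters, which are not independent replicates, Pearson's r of log2(CPM + 1) was 0.905 to 0.95 among glands, 0.95 to 0.956 among ganglia and 0.637 to 0.772 between tissues. Of 51904 clusters tested, 5977 (11.5%) were called, 2843 of them higher in the gland (5.48%) and 3134 higher in the ganglia (6.04%). Counts of calls per list are to be read beside these shares. The 3 gland libraries lay wholly above or below the 3 ganglia libraries in 20335 clusters (39.2%), which include 5946 of the called ones. The differences were large, with a median of 5.41 (log2) among clusters called higher in the gland and -4.53 among those called higher in the ganglia, and 1252 and 926 of these differed by at least 64-fold. Called clusters without a count in the other tissue numbered 618 for the gland and 614 for the ganglia. With any 1 of the 6 libraries left out, the called clusters numbered 3229 to 3963, fewer by more than 1.5 times for each of gland 1, 2 and 3 and ganglia 1, 2 and 3. List counts with a library left out, given below, are to be read beside this loss over all clusters. The median difference over all clusters tested was 0.10, or 0.12 with clusters absent from a tissue set at their bound of 3 counts over its libraries. Here and in the list medians below, absent clusters with 3 or fewer counts in the other tissue have no such bound. They were left out of the second median, as were clusters absent from both tissues, so it covers fewer clusters than the first.

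**Figure D1:**
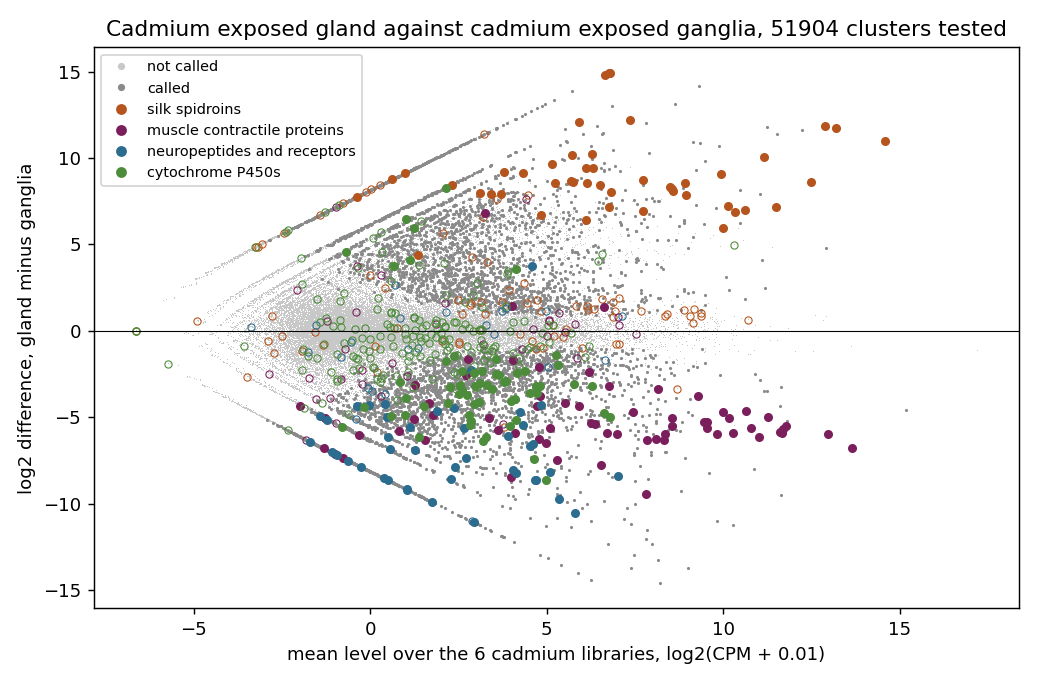
Log2 difference gland minus ganglia (vertical axis) against the mean level over the 6 cadmium libraries as log2(CPM + 0.01) (horizontal axis), 1 point per cluster tested. Silk, muscle, neuropeptide and cytochrome P450 clusters are coloured, with called clusters filled: called silk points lie above 0 and most called muscle points below 0.

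Silk genes held a large share of the gland libraries, and most of it belonged to silk types of glands other than the ampullate ones. All 154 clusters with a silk name or hit together made up 15.1, 14.0 and 13.9% of counts in the glands and 1.15, 0.193 and 1.81% in the ganglia. Aciniform spidroins alone held 11.1, 8.13 and 8.68% of counts in the glands and 0.00549, 0.00361 and 0.00103% in the ganglia. Every gland library was far above every ganglia library, and the ratio of the mean shares was 2754. Pyriform spidroins held 1.89, 2.30 and 1.49% of counts in the glands and 0.00978, 0.00189 and 0.00735% in the ganglia. Aggregate spidroins held 0.616, 1.27 and 0.694% of counts in the glands and 0.00953, 0.00696 and 0.00538% in the ganglia. The tissue label reads ampullate gland, and major ampullate spidroins held 1.02, 1.26 and 2.23% of counts in the glands and 0.779, 0.131 and 0.492% in the ganglia. Their groups did not overlap, but the ratio of the mean shares was 3.23, and the lowest gland library was close to the highest ganglia library. Minor ampullate spidroins held 0.345, 0.121 and 0.496% of counts in the glands and 0.00485, 0.00364 and 0.00118% in the ganglia. Transcripts of silk types outside the label were thus present in every gland library, and their part in the other differences between gland and ganglia was not tested. In such bulk libraries fewer cells of a type and less RNA per cell cannot be told apart.

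**Figure D2:**
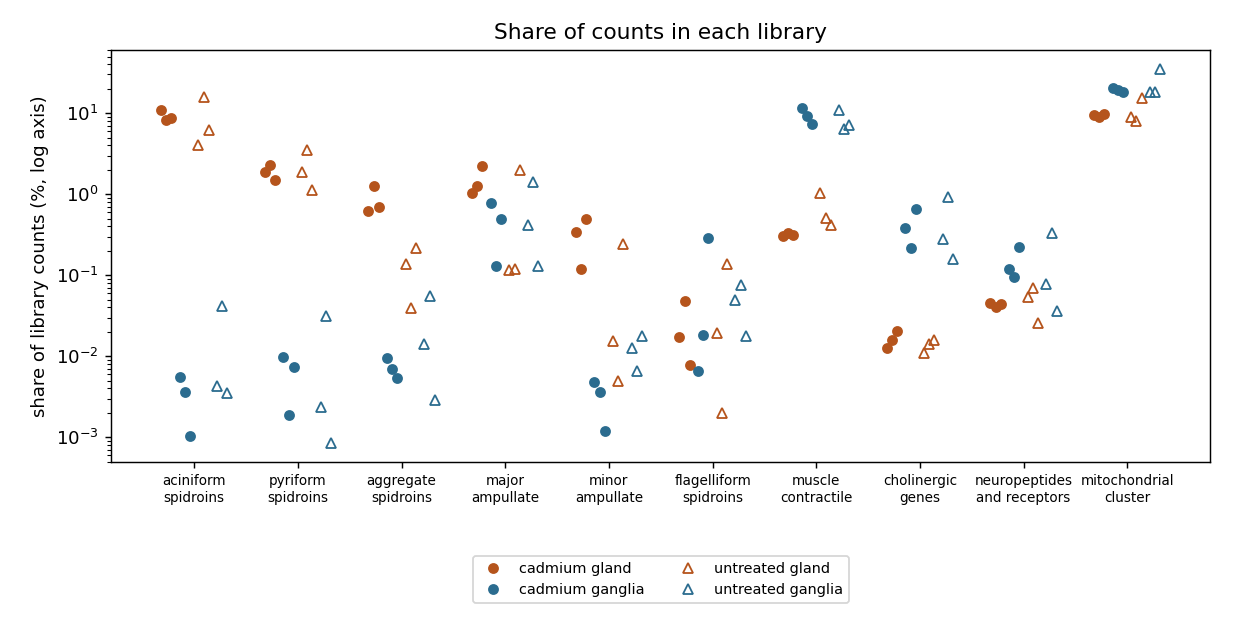
Share of all counts (percent, log axis) held by 10 gene lists, gland libraries (orange) to the left of ganglia libraries (blue) for each list, with cadmium libraries as filled circles and untreated ones as open triangles. Aciniform and pyriform shares are separated by orders of magnitude between the tissues, while major ampullate and flagelliform shares approach or cross each other.

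Wrapping silk was higher in the gland in nearly every cluster. All 15 aciniform clusters were tested, all had differences above 0, and 14 were called higher in the gland, with a median difference of 10.97. The most abundant one, aciniform spidroin of 1277 bases, had 56700.3, 35946 and 55204 CPM in gland libraries 1, 2 and 3, against 48.9, 20.4 and 4.34 CPM in ganglia libraries 1, 2 and 3 (log2 difference 10.97 ± 1.68, adjusted p = 0.000939). Per length it stood at 50541 ± 14240.1 FPKM in the glands. Gland library 2 was the lowest of the 3 glands for it and ganglia library 3 the lowest ganglia. Aciniform spidroin 1 variant 1 of 1709 bases had 14916, 22191 and 18925 CPM in gland libraries 1, 2 and 3, against 9.56, 4.8 and 2.22 CPM in ganglia libraries 1, 2 and 3 (log2 difference 11.72 ± 1.57, adjusted p = 0.000345). The cluster of that name of 795 bases had 13621, 11721 and 20374 CPM in gland libraries 1, 2 and 3, against 7.94, 3.99 and 0.317 CPM in ganglia libraries 1, 2 and 3. Both sets lay apart without overlap. The largest fitted log2 difference among all described clusters at 20 CPM or more, a value that depends on the prior count where a tissue has no counts, was that of another aciniform cluster, of 540 bases, with 101, 229 and 329 CPM in gland libraries 1, 2 and 3, against no counts in any ganglia library. Against a floor of 3 counts over the ganglia libraries it was at least 3433-fold higher in the gland. The next in that ranking, of 591 bases, had 92.6, 242 and 313 CPM in gland libraries 1, 2 and 3, against no counts in any ganglia library, and lost its call without ganglia 3 (adjusted p up to 0.0502). The one after it, of 445 bases, had 99.3, 224 and 285 CPM in gland libraries 1, 2 and 3, against no counts in any ganglia library (adjusted p = 0.0275), and was no longer called without ganglia 1, ganglia 2, ganglia 3, gland 2 or gland 3 (adjusted p up to 0.0791). With 1 library left out, 10 to 13 aciniform clusters were called.

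Attachment cement followed the same direction. Of 9 pyriform clusters 5 were tested and 4 were called higher in the gland, with a median difference of 8.31. The leading pyriform spidroin, of 1517 bases, had 8811, 14147 and 11565 CPM in gland libraries 1, 2 and 3, against 43.3, 5.49 and 41.2 CPM in ganglia libraries 1, 2 and 3 (log2 difference 8.58 ± 1.76, adjusted p = 0.00634). The cluster of 868 bases that matches the Araneus ventricosus pyriform spidroin gene had 6596, 5733 and 4721 CPM in gland libraries 1, 2 and 3, against 92.6, 11.0 and 14.5 CPM in ganglia libraries 1, 2 and 3 (log2 difference 7.17 ± 1.52, adjusted p = 0.00745). Ganglia library 2 was the lowest for both, and no ganglia library came near the glands. Without ganglia library 1 or 2, 2 of the 4 calls were left.

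Glue transcripts were likewise abundant in the cadmium gland. Of 14 aggregate clusters 13 were tested and 11 were called higher in the gland, with a median of 8.54. Aggregate spidroin 1 of 3505 bases had 1979, 2690.0 and 2957 CPM in gland libraries 1, 2 and 3, against 43.9, 15.9 and 4.92 CPM in ganglia libraries 1, 2 and 3 (log2 difference 6.88 ± 1.28, adjusted p = 0.00317). The cluster of 2147 bases that matches aggregate spidroin 2 of Argiope trifasciata had 1993, 3181 and 1463 CPM in gland libraries 1, 2 and 3, against 28.8, 12.1 and 3.60 CPM in ganglia libraries 1, 2 and 3 (log2 difference 7.22 ± 1.42, adjusted p = 0.00471). Both were high in all glands and low in all ganglia, with ganglia library 3 the lowest. Aggregate spidroin 1 of 1453 bases spread more among the glands, at 599.6, 3555 and 1691 CPM in the glands and 6.09, 2.20 and 2.38 CPM in the ganglia (log2 difference 9.10 ± 1.59, adjusted p = 0.00239). Mesocentin of 2723 bases, a spider silk protein name in the databases, was the most abundant called cluster of the remaining silk list. It had 238, 852 and 249 CPM in gland libraries 1, 2 and 3, against 3.24, 1.44 and 2.17 CPM in ganglia libraries 1, 2 and 3 (log2 difference 7.61 ± 1.34, adjusted p = 0.00233). In that list 3 of 16 tested clusters were called, all higher in the gland. Its summed shares overlapped, with means of 0.423% of counts in the glands and 0.468% in the ganglia. With 1 library left out, 10 or 11 aggregate clusters were called.

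Major ampullate spidroins were called higher in the gland in 11.8% of the clusters tested, closer to the 5.48% of all clusters than the other silk types above. Of 76 major ampullate clusters 68 were tested, 57 of them with differences above 0, and 8 were called higher in the gland, with a median of 1.47, or 1.52 with absent ones at their bound. Dragline silk protein-2 of 911 bases had 2953, 538 and 5799 CPM in gland libraries 1, 2 and 3, against 51.2, 9.42 and 13.5 CPM in ganglia libraries 1, 2 and 3 (log2 difference 6.97 ± 2.07, adjusted p = 0.0432). Gland library 2 was well below the other glands, but above every ganglia library. It was no longer called without any 1 of the 6 libraries (adjusted p up to 0.146). The most abundant member, major ampullate spidroin 2 variant 5 of 741 bases, had 1784, 1837 and 2403 CPM in gland libraries 1, 2 and 3, against 2645, 488 and 746 CPM in ganglia libraries 1, 2 and 3 (log2 difference 0.64 ± 1.22, adjusted p = 0.813, not called). Ganglia library 1 exceeded all 3 glands for it. Per length it averaged 4296 ± 120.2 FPKM in the glands and 2243 ± 1413 FPKM in the ganglia (SD, n = 3 each). Without ganglia 1, 2 or 3, the list's count of calls fell to 1, 0 and 1, and without gland 1 or 3 to 5 and 2.

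Minor ampullate spidroins were higher in the gland. All 10 tested clusters of 11 had differences above 0 and 8 were called higher in the gland, with a median of 8.0, or 7.92 with absent ones at their bound. Minor ampullate spidroin 1 variant 1 of 2042 bases had 2476, 735 and 2758 CPM in gland libraries 1, 2 and 3, against 59.9, 29.4 and 6.40 CPM in ganglia libraries 1, 2 and 3 (log2 difference 5.96 ± 1.70, adjusted p = 0.0366), a call that was lost without ganglia 1, ganglia 2, ganglia 3, gland 1 or gland 3 (adjusted p up to 0.127). The cluster named minor ampullate spidroin of 877 bases had 167, 161 and 1970.1 CPM in gland libraries 1, 2 and 3, against 4.86, 1.39 and 2.38 CPM in ganglia libraries 1, 2 and 3 (log2 difference 8.06 ± 2.17, adjusted p = 0.0282). Gland library 3 was more than 10 times higher than the other glands there, and the call was lost without ganglia 1, ganglia 2, ganglia 3 or gland 3 (adjusted p up to 0.108). The list kept 2, 1 and 1 calls without ganglia 1, 2 or 3 and 3 without gland 3.

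Capture spiral silk lay in both directions. Of 16 flagelliform clusters 15 were tested, 5 with differences above 0 and 10 below, and 2 were called, both higher in the gland. Flagelliform spidroin variant 1 of 1032 bases had 11.1, 138 and 64.4 CPM in gland libraries 1, 2 and 3, against 0.0771, 0 and 0.159 CPM in ganglia libraries 1, 2 and 3 (log2 difference 9.67 ± 1.60, adjusted p = 0.00166). Flagelliform fibroin of 805 bases had 118, 80.0 and 16 CPM in gland libraries 1, 2 and 3, against 61.6, 127 and 2061 CPM in ganglia libraries 1, 2 and 3 (log2 difference -3.40 ± 1.51, adjusted p = 0.152, not called). Ganglia library 3 stood far above all others for it. The same library had 7347 CPM of a cluster of 1345 bases named for a synthetic spider silk construct, against 51.5 and 81.5 CPM in ganglia libraries 1 and 2 and 11.0 to 85.5 CPM in the glands. The single tubuliform (egg case) cluster had too few counts to be tested.

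Part of the secretory route was higher in the gland. Of 52 clusters for ER translocation and folding 43 were tested, 40 had differences above 0, 11 were called higher in the gland and 2 higher in the ganglia, with a median of 0.76. Sec61 subunit alpha, the channel through which secreted proteins enter the ER, had 2273, 2765 and 2351 CPM in gland libraries 1, 2 and 3, against 844, 557 and 699.9 CPM in ganglia libraries 1, 2 and 3 (log2 difference 1.81 ± 0.36, adjusted p = 0.0039). Protein disulfide-isomerase-like of 3586 bases, an enzyme that forms disulfide bonds, averaged 622 ± 76.4 CPM in the glands and 270.1 ± 64.6 CPM in the ganglia (SD, n = 3 each; adjusted p = 0.0215), and was not called without ganglia 2, ganglia 3, gland 1 or gland 2 (adjusted p up to 0.0843). In the other direction, peptidyl-prolyl cis-trans isomerase B-like, an ER proline isomerase, had 42.8, 43.5 and 63.1 CPM in gland libraries 1, 2 and 3, against 660.0, 316 and 207 CPM in ganglia libraries 1, 2 and 3 (log2 difference -2.99 ± 0.52, adjusted p = 0.00151). The ER list kept 5 calls higher in the gland without ganglia 2 or 3 and 6 without gland 2 or 3.

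Vesicle coats and Golgi transport lay near the background, with 7 clusters called higher in the gland and 2 higher in the ganglia of 100 tested from 109. Sec23A-like, a part of the coat that buds from the ER, had 211, 362 and 419.7 CPM in gland libraries 1, 2 and 3, against 132, 91.6 and 89.2 CPM in ganglia libraries 1, 2 and 3 (log2 difference 1.67 ± 0.36, adjusted p = 0.00676). Sec24A-like, its partner, had 298, 408 and 299 CPM in the glands and 278, 244 and 247 CPM in the ganglia and was not called (adjusted p = 0.538). The vesicle list kept 3 and 4 calls higher in the gland without ganglia 2 or 3 and 4 without gland 1 or 2, and its groups of summed shares overlapped.

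Few of the enzymes that charge transfer RNA were called. Of 75 aminoacyl-tRNA synthetase clusters 35 were tested, 4 were called higher in the gland (11.4%, against 5.48% of all clusters tested) and none higher in the ganglia, with a median of 0.40, or 0.54 with absent ones at their bound. The most abundant one, tyrosine--tRNA ligase, had 1021, 1112 and 807 CPM in the glands and 744, 529 and 546 CPM in the ganglia and was not called (adjusted p = 0.197). Asparagine--tRNA ligase had 1025, 1069 and 645 CPM in gland libraries 1, 2 and 3, against 447, 378 and 376 CPM in ganglia libraries 1, 2 and 3 (log2 difference 1.19 ± 0.30, adjusted p = 0.0171). Glycine--tRNA ligase-like of 3611 bases, for an amino acid that abounds in spidroins, had 313, 363 and 288 CPM in gland libraries 1, 2 and 3, against 99.9, 51.5 and 121 CPM in ganglia libraries 1, 2 and 3 (log2 difference 1.82 ± 0.39, adjusted p = 0.00579). Serine--tRNA ligase had 85.1, 95.5 and 82.0 CPM in gland libraries 1, 2 and 3, against 29.8, 21.1 and 27.5 CPM in ganglia libraries 1, 2 and 3 (log2 difference 1.74 ± 0.38, adjusted p = 0.00628). Each gland library exceeded each ganglia library in these 3 clusters. The list had 2 calls without ganglia 3, gland 1 or gland 2. Over all clusters, calls higher in the gland then numbered 1245 of 51403, 2081 of 50905 and 1934 of 51182. Asparagine--tRNA ligase was not called without ganglia 3, gland 1 or gland 2 (adjusted p up to 0.0739). Cytosolic ribosomal proteins had 1 called of 110 tested from 127, 60S ribosomal protein L9, with 245, 313 and 292 CPM in the glands and 149, 81.6 and 71.1 CPM in the ganglia, a call lost without ganglia 2, ganglia 3, gland 2 or gland 3 (adjusted p up to 0.13). Of the 110, 98 had differences above 0, with a median of 0.41. General translation factors headed the most abundant described clusters of the gland after the spidroins. Elongation factor 1-alpha 1-like protein, which brings aminoacyl-tRNA to the ribosome, had 9351, 11026 and 8945 CPM in the glands and 7599, 4735 and 4682 CPM in the ganglia (log2 difference 0.79 ± 0.40, adjusted p = 0.213). Elongation factor 2, which moves the ribosome along, had 7229.7, 10044 and 8895 CPM in the glands and 7707, 4926 and 5043 CPM in the ganglia (log2 difference 0.57 ± 0.36, adjusted p = 0.324). The summed ribosomal protein share was 5.22, 4.66 and 3.78% of counts in the glands and 3.40, 3.08 and 2.83% in the ganglia, so the groups did not overlap.

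Amino acid transporters and the enzymes of glycine, alanine and serine were called in both directions. Of 109 such clusters 88 were tested, 17 were called higher in the gland and 8 higher in the ganglia. D-3-phosphoglycerate dehydrogenase, the entry enzyme of serine synthesis, had 988, 1263 and 900.2 CPM in gland libraries 1, 2 and 3, against 423, 333 and 377 CPM in ganglia libraries 1, 2 and 3 (log2 difference 1.48 ± 0.35, adjusted p = 0.0113). Mitochondrial serine hydroxymethyltransferase, which interconverts serine and glycine, had 133, 167 and 184 CPM in gland libraries 1, 2 and 3, against 40.1, 16.2 and 30.3 CPM in ganglia libraries 1, 2 and 3 (log2 difference 2.48 ± 0.50, adjusted p = 0.00386). Both were higher in every gland library. Phosphoserine aminotransferase, the next enzyme of serine synthesis and the most abundant of the list, had 930.2, 1250.4 and 1077 CPM in the glands and 849, 499 and 739.8 CPM in the ganglia (log2 difference 0.64 ± 0.36, adjusted p = 0.262). The leading clusters in the other direction were transporters. The b(0,+)-type amino acid transporter 1 had 41.7, 47.5 and 27 CPM in gland libraries 1, 2 and 3, against 331, 528 and 422 CPM in ganglia libraries 1, 2 and 3 (log2 difference -3.46 ± 0.48, adjusted p = 0.000292). Excitatory amino acid transporter 2, which clears glutamate from synapses, had 13.4, 15.4 and 18.4 CPM in gland libraries 1, 2 and 3, against 256, 170.0 and 176 CPM in ganglia libraries 1, 2 and 3 (log2 difference -3.67 ± 0.58, adjusted p = 0.000772). The list kept 10 calls higher in the gland without ganglia 1 and 9 without ganglia 3.

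Acid and ion handling, which the silk duct needs, showed 11 clusters called higher in the gland and 3 higher in the ganglia of 61 tested from 69. A mitochondrial sodium/hydrogen exchanger 9B2 had 103, 159 and 118 CPM in gland libraries 1, 2 and 3, against 6.25, 4.62 and 8.57 CPM in ganglia libraries 1, 2 and 3 (log2 difference 4.28 ± 0.61, adjusted p = 0.000347). V-type proton ATPase 116 kDa subunit a-like of 2073 bases, part of the pump that acidifies compartments, had 43.9, 55.2 and 48.2 CPM in gland libraries 1, 2 and 3, against 12, 13 and 15.4 CPM in ganglia libraries 1, 2 and 3 (log2 difference 1.87 ± 0.46, adjusted p = 0.015). The other cluster of that name, of 2467 bases, had 37.6, 27.9 and 23.2 CPM in the glands and 8.48, 6.93 and 5.50 CPM in the ganglia (log2 difference 2.08 ± 0.47, adjusted p = 0.00902), a call lost without ganglia 3 (adjusted p up to 0.0514). Subunit G of the same pump had 34.0, 20.7 and 17.5 CPM in the glands and 0.771, 1.79 and 0.952 CPM in the ganglia (log2 difference 4.35 ± 0.58, adjusted p = 0.000233). The gland libraries of the exchanger and of subunit G lay above all ganglia libraries. Without ganglia 1, 2 or 3 the list kept 6 calls higher in the gland and without gland 3 it kept 7, while the 3 higher in the ganglia were 0, 1 and 1 without gland 1, 2 or 3.

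Cuticle-type proteins were higher in the gland in part. Silk ducts are lined with cuticle. Of 142 clusters for cuticle proteins and chitin 104 were tested, 17 were called higher in the gland and 5 higher in the ganglia, with a median of 1.71, or 1.11 with absent ones at their bound. Cuticle protein 10.9 of 6009 bases had 259.6, 202 and 241 CPM in gland libraries 1, 2 and 3, against 0.540, 0 and 0 CPM in ganglia libraries 1, 2 and 3 (log2 difference 10.46 ± 1.2, adjusted p = 8.77e-05). A second cluster of that name, of 854 bases, had 46.1, 32.4 and 24.3 CPM in gland libraries 1, 2 and 3, against no counts in any ganglia library, which makes it at least 576-fold higher in the gland. Peritrophin-1, a chitin-binding protein, went the other way with 4.61, 129 and 18.1 CPM in gland libraries 1, 2 and 3, against 1039, 809 and 412 CPM in ganglia libraries 1, 2 and 3 (adjusted p = 0.035), a call lost without ganglia 1, ganglia 2, ganglia 3, gland 1 or gland 3 (adjusted p up to 0.133). The 5 calls higher in the ganglia were 3, 2 and 3 without ganglia 1, 2 or 3 and 3 without gland 2. Chitin deacetylase 1 was the most abundant of the list, with 1515, 3215 and 10595 CPM in gland libraries 1, 2 and 3, against 38, 456 and 68.8 CPM in ganglia libraries 1, 2 and 3 (log2 difference 4.77 ± 1.95, adjusted p = 0.124, not called).

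The list of innexins, which form gap junctions in arthropods, and septate junction proteins had 43 clusters tested from 48. Of these, 6 (14%, against 5.48% of all clusters) were called higher in the gland and 9 (20.9%, against 6.04%) higher in the ganglia. Both clusters named below were higher in the gland, although more of the list was called higher in the ganglia. Innexin inx2-like of 3999 bases had 444, 387 and 298 CPM in gland libraries 1, 2 and 3, against 3.08, 1.91 and 1.9 CPM in ganglia libraries 1, 2 and 3 (log2 difference 7.35 ± 0.90, adjusted p = 0.000119). Innexin inx2-like of 1329 bases had 84.6, 80.1 and 122 CPM in gland libraries 1, 2 and 3, against 0.154, 0 and 0 CPM in ganglia libraries 1, 2 and 3, or 5367 against 2 counts, a ratio after scaling to library size of 2272 (95% counting interval 629 to 18763). Neither overlapped between the tissues. The 9 calls higher in the ganglia were 2 to 5 with any 1 of the 6 libraries left out.

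Among the 10 largest fitted differences towards the gland, a glycine receptor subunit alpha-2-like cluster of 505 bases had 76.3, 44.4 and 65.7 CPM in gland libraries 1, 2 and 3, against no counts in any ganglia library, at least 1000.0-fold higher there. Arylsulfatase B, a lysosomal sulfatase, had 79.5, 39.8 and 38.9 CPM in gland libraries 1, 2 and 3, against no counts in any ganglia library, at least 878-fold higher (adjusted p = 6.99e-06). A glucose dehydrogenase [FAD, quinone]-like cluster had 28.6, 47.6 and 42 CPM in gland libraries 1, 2 and 3, against no counts in any ganglia library. None of these 3 had a ganglia count.

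**Figure D3:**
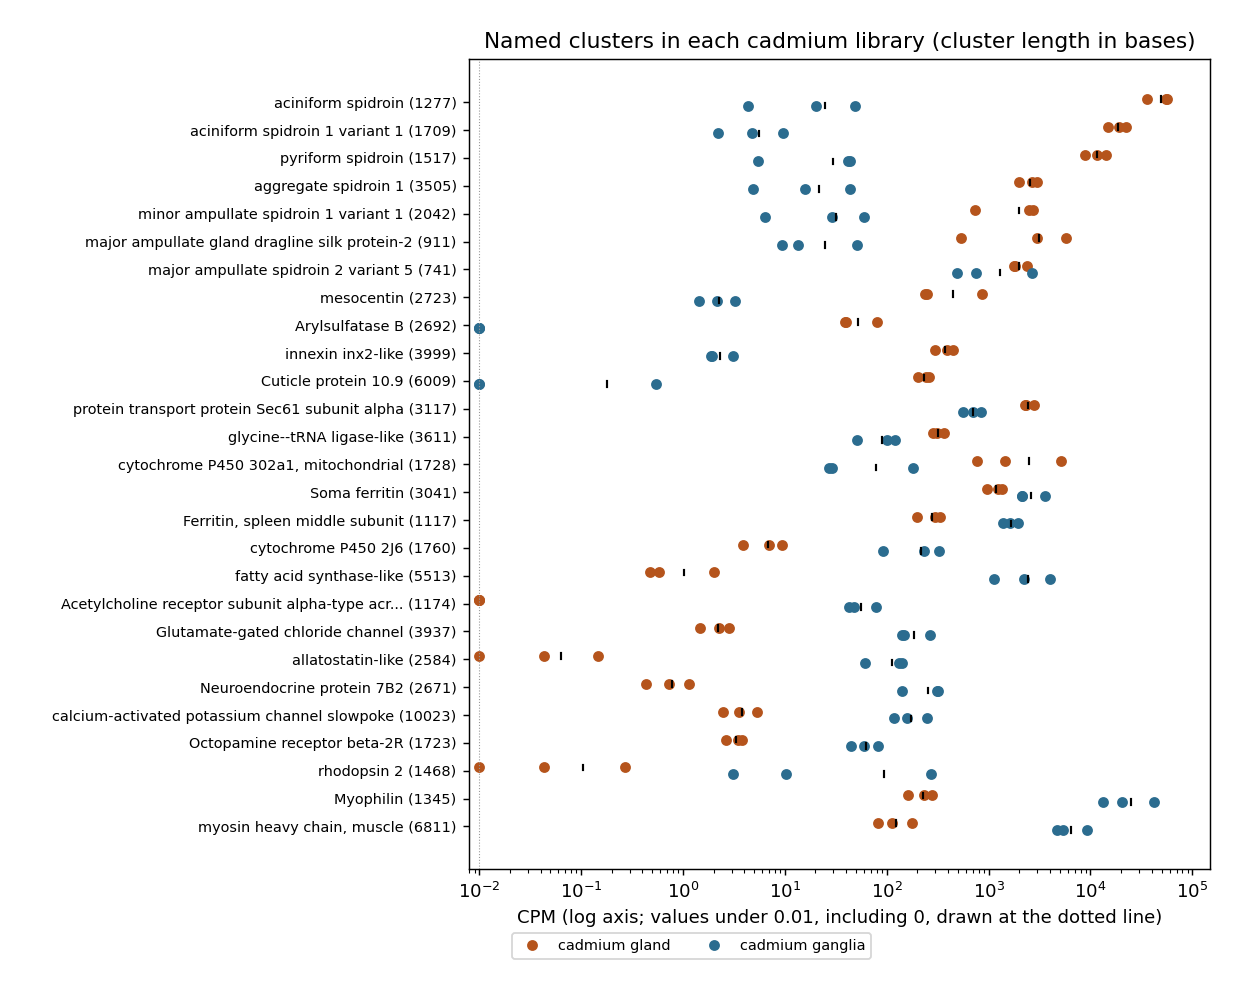
Level of 27 named clusters in each of the 6 cadmium libraries (CPM, log axis), gland points (orange) drawn above ganglia points (blue) for each cluster, with a bar at the mean of the 3 libraries and values under 0.01 CPM drawn at the dotted line. Silk, secretory and cuticle clusters lie higher in the gland, nerve, muscle and lipid clusters higher in the ganglia, and the points of major ampullate spidroin 2 variant 5 overlap.

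Neuropeptide genes were higher in the ganglia. Of 80 clusters for neuropeptides, their receptors and processing 66 were tested, 42 were called higher in the ganglia and 1 higher in the gland, with a median of -5.13, or -4.67 with absent ones at their bound. Neuroendocrine protein 7B2, a helper of the prohormone convertase PC2, had 0.735, 0.436 and 1.15 CPM in gland libraries 1, 2 and 3, against 317, 141 and 313 CPM in ganglia libraries 1, 2 and 3 (log2 difference -8.38 ± 1.11, adjusted p = 0.000268). Allatostatin-like, a peptide family that inhibits juvenile hormone synthesis and gut muscle in insects, had 0.147, 0.0436 and 0 CPM in gland libraries 1, 2 and 3, against 133, 60.8 and 142 CPM in ganglia libraries 1, 2 and 3 (log2 difference -10.55 ± 1.47, adjusted p = 0.000558). Ion transport peptide-like protein, named for a hormone of insect water balance, had 0.196, 0 and 0.0678 CPM in the glands and 28.8, 100.1 and 113 CPM in the ganglia (log2 difference -9.74 ± 1.65, adjusted p = 0.00233). Orcokinin peptides type A had 0.392, 0.261 and 0 CPM in the glands and 88.3, 25.8 and 91.6 CPM in the ganglia (log2 difference -8.19 ± 1.39, adjusted p = 0.00178). Every ganglia library was far above every gland library for these peptides. Carboxypeptidase E, which trims peptide precursors, was abundant in both tissues, with 176, 135 and 238 CPM in gland libraries 1, 2 and 3, against 113, 62.3 and 123 CPM in ganglia libraries 1, 2 and 3 (log2 difference 0.88 ± 0.56, adjusted p = 0.328, not called). With 1 library left out, 27 to 32 neuropeptide clusters were called higher in the ganglia, 27 of them without gland 2.

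Receptors for amino acid transmitters were called in both directions, more often higher in the ganglia. Of 148 clusters for glutamate, GABA and glycine signalling 104 were tested, 40 were called higher in the ganglia and 12 higher in the gland, with a median of -2.89, or -2.74 with absent ones at their bound. Glutamate-gated chloride channel of 3937 bases, an inhibitory receptor of arthropods, had 1.47, 2.27 and 2.85 CPM in gland libraries 1, 2 and 3, against 264, 143 and 149 CPM in ganglia libraries 1, 2 and 3 (log2 difference -6.40 ± 0.84, adjusted p = 0.000218). The cluster of 2192 bases had 9.26, 5.36 and 1.63 CPM in the glands and 476, 91.1 and 181 CPM in the ganglia (log2 difference -5.52 ± 1.07, adjusted p = 0.00394). Another cluster of that name, of 528 bases, had 2.84, 1.48 and 0.746 CPM in the glands and 191, 21.8 and 65.2 CPM in the ganglia (log2 difference -5.77 ± 1.28, adjusted p = 0.00952). Glycine receptor subunit alpha-2-like of 1600 bases was higher in the gland, with 101, 71.5 and 102 CPM in gland libraries 1, 2 and 3, against 11.0, 8.49 and 6.13 CPM in ganglia libraries 1, 2 and 3 (log2 difference 3.42 ± 0.88, adjusted p = 0.0199), and was not called without ganglia 1, ganglia 2 or ganglia 3 (adjusted p up to 0.0887). Without gland 1 the list kept 25 calls higher in the ganglia, and without ganglia 3 it kept 7 higher in the gland.

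Acetylcholine is the main fast transmitter of arthropod brains. Of 68 cholinergic clusters 55 were tested, 14 were called higher in the ganglia and 5 higher in the gland, with a median of -0.82, or -0.85 with absent ones at their bound. Neuronal acetylcholine receptor subunit alpha-2 of 740 bases had 11.5, 16.3 and 16.8 CPM in gland libraries 1, 2 and 3, against 4679, 1650.5 and 4951 CPM in ganglia libraries 1, 2 and 3 (log2 difference -7.98 ± 0.92, adjusted p = 7.84e-05). Per length it averaged 32.0 ± 5.51 FPKM in the glands and 7524 ± 4249 FPKM in the ganglia (SD, n = 3 each). Its neighbour of the same name, of 401 bases, had 0, 0.0872 and 0 CPM in the glands and 315, 87.4 and 234 CPM in the ganglia. Acetylcholine receptor subunit alpha-type acr-16 had no counts in any gland library, against 78.2, 47.8 and 42.4 CPM in ganglia libraries 1, 2 and 3, at least 1041-fold higher in the ganglia. All 5 clusters higher in the gland carried the names of cholinesterases, the enzymes that break acetylcholine down, and were named here after their values were seen. They numbered 2 or 3 with any 1 of the 6 libraries left out, and without ganglia 3 the calls higher in the ganglia numbered 9.

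Monoamine genes had 10 of 34 tested clusters (46 in all) called higher in the ganglia and none higher in the gland, with a median of -2.06, or -2.0 with absent ones at their bound. Octopamine receptor beta-2R, for the arthropod counterpart of noradrenaline, had 3.82, 3.49 and 2.64 CPM in gland libraries 1, 2 and 3, against 82.0, 59.6 and 44.9 CPM in ganglia libraries 1, 2 and 3 (log2 difference -4.22 ± 0.65, adjusted p = 0.000602). A synaptic vesicular amine transporter-like cluster had 1.91, 3.75 and 3.32 CPM in the glands and 17.4, 27.3 and 22.5 CPM in the ganglia (log2 difference -2.90 ± 0.61, adjusted p = 0.0052). Every ganglia library exceeded every gland library in both. Without ganglia 3 or gland 1, 2 or 3 the list kept 6 calls.

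Of 89 voltage-gated and related ion channel clusters 74 were tested, 20 were called higher in the ganglia and 4 higher in the gland, with a median of -1.58. The calcium-activated potassium channel slowpoke, which ends action potentials, had 5.29, 2.48 and 3.53 CPM in gland libraries 1, 2 and 3, against 158, 118 and 248 CPM in ganglia libraries 1, 2 and 3 (log2 difference -5.53 ± 0.75, adjusted p = 0.000243). Sodium channel protein 60E of 2498 bases had 2.16, 5.84 and 9.22 CPM in gland libraries 1, 2 and 3, against 122, 84.9 and 67.8 CPM in ganglia libraries 1, 2 and 3 (log2 difference -4.0 ± 0.56, adjusted p = 0.000307). Potassium channel subfamily K member 18, a leak channel, had 1.13, 3.44 and 2.17 CPM in the glands and 136, 106 and 69.6 CPM in the ganglia (log2 difference -5.52 ± 0.81, adjusted p = 0.000467). None of the channels named here overlapped between the tissues. Without gland 1 or 3 the calls higher in the ganglia numbered 13, and the 4 higher in the gland were 0 and 1 without ganglia 2 or 3 and 2 without gland 1, 2 or 3. Axon guidance and neural adhesion genes had 50 of 179 tested clusters (280 in all) called higher in the ganglia and 2 higher in the gland, with a median of -1.80. The most abundant called one, a putative fasciclin of 586 bases, was higher in the gland, with 374, 303 and 417 CPM in gland libraries 1, 2 and 3, against 13.4, 2.02 and 4.71 CPM in ganglia libraries 1, 2 and 3 (log2 difference 5.77 ± 0.78, adjusted p = 0.000259). Fasciclin-2 of 2157 bases, an adhesion molecule of growing axons, had 20.1, 15.3 and 26.9 CPM in the glands and 73.0, 44.8 and 60.4 CPM in the ganglia (log2 difference -1.52 ± 0.41, adjusted p = 0.024), a call lost without ganglia 1, ganglia 3, gland 1 or gland 2 (adjusted p up to 0.112). The axon list kept 28 to 31 calls higher in the ganglia without ganglia 3 or gland 1, 2 or 3, and 1 higher in the gland without ganglia 1, 2 or 3.

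Vesicle release genes, which secretory cells use too, were called about as often in either direction. Of 78 such clusters 70 were tested, with a median of -0.04. Calls higher in the gland numbered 8 (11.4%, against 5.48% of all clusters) and higher in the ganglia 9 (12.9%, against 6.04%). Synaptotagmin-C had 372, 458 and 256 CPM in gland libraries 1, 2 and 3, against 18.7, 4.51 and 39.2 CPM in ganglia libraries 1, 2 and 3 (log2 difference 4.12 ± 0.69, adjusted p = 0.00114). Synaptotagmin 1 of 2513 bases, the calcium sensor of synaptic vesicles, had 2.35, 1.48 and 1.15 CPM in gland libraries 1, 2 and 3, against 179.9, 90.8 and 274 CPM in ganglia libraries 1, 2 and 3 (log2 difference -6.76 ± 1.24, adjusted p = 0.00294). These 2 synaptotagmins went in opposite directions, each without overlap. Elav-like 2, an RNA-binding protein whose fly relative is used as a pan-neuronal marker, had 132, 178 and 129 CPM in the glands and 219, 176 and 144 CPM in the ganglia and was not called (adjusted p = 0.743). It belongs to a list of 23 neuronal RNA-binding proteins and transcription factors, of which 17 were tested and 1 was called in each direction. Without ganglia 2 or 3, 3 and 4 of these vesicle release clusters were called higher in the gland.

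Muscle genes were higher in the ganglia in about as large a share of clusters as neuropeptides. Of 128 contractile protein clusters 102 were tested, 62 were called higher in the ganglia and 3 higher in the gland, with a median of -4.50, or -4.32 with absent ones at their bound. Together they held 0.306, 0.330 and 0.312% of counts in the glands and 11.7, 9.19 and 7.43% in the ganglia. The glands were nearly level with each other, and ganglia library 1 was the highest. Myophilin, a calponin-like muscle protein, had 163, 233 and 279 CPM in gland libraries 1, 2 and 3, against 41838, 20513 and 13378 CPM in ganglia libraries 1, 2 and 3 (log2 difference -6.81 ± 0.80, adjusted p = 7.95e-05). Muscle LIM protein 1, which sits at the filament anchors, had 192, 215 and 354 CPM in the glands and 25196, 12870.1 and 9469 CPM in the ganglia (log2 difference -5.97 ± 0.92, adjusted p = 0.000737). Paramyosin, the core of invertebrate thick filaments, had 95.7, 124 and 225 CPM in gland libraries 1, 2 and 3, against 11296, 5264 and 3989 CPM in ganglia libraries 1, 2 and 3 (log2 difference -5.53 ± 0.74, adjusted p = 0.000218). The muscle myosin heavy chain of 6811 bases had 82.6, 113 and 178 CPM in gland libraries 1, 2 and 3, against 9326, 5393 and 4652 CPM in ganglia libraries 1, 2 and 3 (log2 difference -5.70 ± 0.67, adjusted p = 8.04e-05). No gland library came near a ganglia library for these genes, and none of them was at 0 in the glands. A cytoplasmic actin of 1532 bases had 1919, 3013 and 4039 CPM in the glands and 114132, 58540.5 and 40259.9 CPM in the ganglia (log2 difference -4.57 ± 0.60, adjusted p = 0.00018). Actin, cytoplasmic 2, of 351 bases, had 126, 152 and 278 CPM in the glands and 10641, 6269 and 4025 CPM in the ganglia (log2 difference -5.23 ± 0.81, adjusted p = 0.000667). Muscle is not a tissue of the label, and its part in the other differences between gland and ganglia was not tested. With 1 library left out, 54 to 57 muscle clusters were called higher in the ganglia, while the 3 higher in the gland were 1, 0 and 1 without ganglia 2, ganglia 3 or gland 1.

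Markers of other tissues were present too. Hemolymph and hemocyte proteins had 67 clusters tested from 78. Of these, 7 (10.4%, against 6.04% of all clusters) were called higher in the ganglia and 1 (1.49%, against 5.48%) higher in the gland. The list held 0.103, 0.0566 and 0.341% of counts in the glands and 0.873, 0.299 and 0.247% in the ganglia, so that the groups overlapped. Without ganglia 2, gland 1 or gland 2 that list kept 4 calls higher in the ganglia, and without ganglia 3 none higher in the gland. Hemocyanin subunit A, the oxygen carrier of spider blood, had 117, 41.8 and 603 CPM in gland libraries 1, 2 and 3, against 2186, 353 and 294 CPM in ganglia libraries 1, 2 and 3 (log2 difference -1.89 ± 1.38, adjusted p = 0.417, not called). Opsins and phototransduction genes had 5 called higher in the ganglia (23.8%, against 6.04% of all clusters) and none higher in the gland of 21 tested from 29. Their differences were 10 above 0 and 11 below, with a median of -0.35. The summed shares overlapped, with means of 0.0877% of counts in the glands and 0.0760% in the ganglia. Retinal dehydrogenase 1 and retinal dehydrogenase 2 of this list had log2 differences of 1.16 and 0.69 and were not called (adjusted p = 0.289 and 0.584). Retinol dehydrogenase 13-like, an enzyme of retinoid turnover, had 3.14, 3.27 and 7.80 CPM in the glands and 223, 119 and 94.1 CPM in the ganglia (log2 difference -4.94 ± 0.67, adjusted p = 0.000256). Rhodopsin 2, a visual pigment of the eyes, had 0, 0.0436 and 0.271 CPM in gland libraries 1, 2 and 3, against 3.08, 10.3 and 270.0 CPM in ganglia libraries 1, 2 and 3 (adjusted p = 0.0225), so that ganglia library 3 held nearly all of it, and was not called without ganglia 3, gland 1, gland 2 or gland 3 (adjusted p up to 0.0797). The opsin list kept 3 calls without ganglia 3, gland 1 or gland 2. Venom toxin names had 79 clusters tested from 105. Of these, 10 (12.7%, against 5.48% of all clusters) were called higher in the gland and 12 (15.2%, against 6.04%) higher in the ganglia. The most abundant, U-scoloptoxin(01)-Cw1a, had 511, 998 and 3446 CPM in the glands and 9.87, 86.0 and 14.1 CPM in the ganglia and was not called (adjusted p = 0.0908). A putative neurotoxin LTDF S-18 of 1269 bases had 960.3, 904 and 1127 CPM in gland libraries 1, 2 and 3, against 59.2, 21.1 and 25.9 CPM in ganglia libraries 1, 2 and 3 (log2 difference 4.82 ± 0.84, adjusted p = 0.00169). The cluster named Putative neurotoxin, of 8200 bases, had 0, 0.0436 and 0.407 CPM in gland libraries 1, 2 and 3, against 277, 242 and 479 CPM in ganglia libraries 1, 2 and 3 (log2 difference -11.21 ± 1.16, adjusted p = 4.65e-05). Such names come from sequence likeness only. Midgut enzymes had 10 called higher in the gland and 2 higher in the ganglia of 165 tested from 199, near the background of the gland. Cathepsin L6, a lysosomal and digestive protease, had 209, 509 and 339.6 CPM in the glands and 19.1, 20.9 and 19.2 CPM in the ganglia (log2 difference 4.16 ± 0.89, adjusted p = 0.00653). The midgut list kept 4 to 6 calls higher in the gland without ganglia 1, 2 or 3, gland 1 or gland 3, and 1 higher in the ganglia without ganglia 2, ganglia 3, gland 1 or gland 2. The part of these tissues in the results was not tested.

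**Figure D4:**
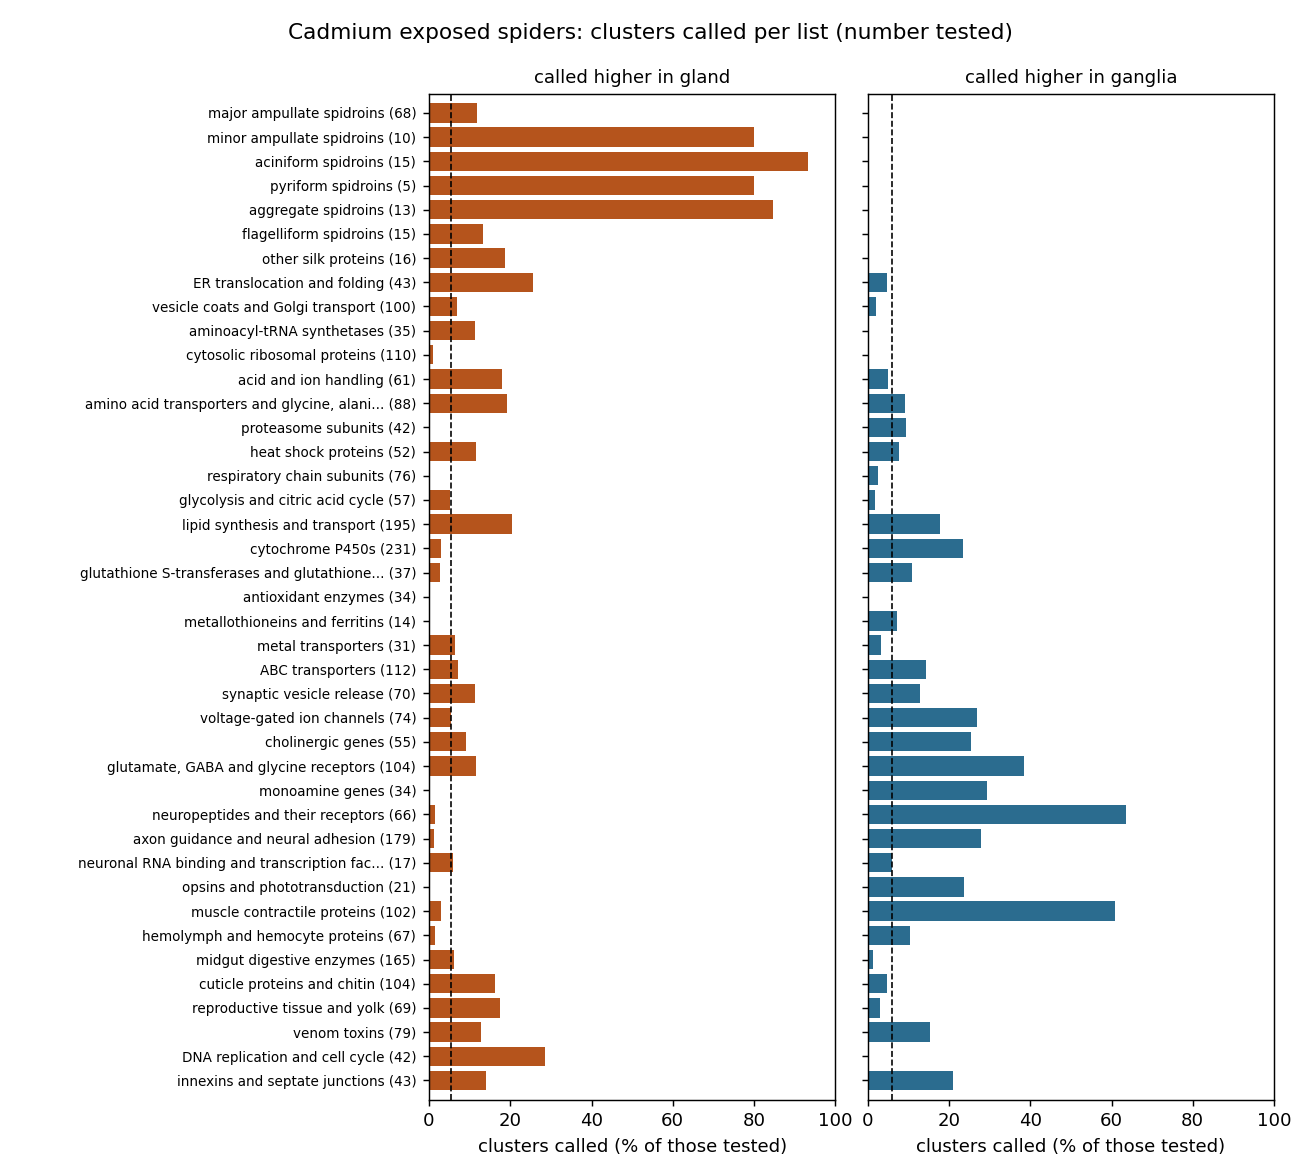
Percent of the tested clusters of each list called higher in the gland (left panel) and higher in the ganglia (right panel), with dashed lines at the share over all clusters tested, 5.48% and 6.04%. Silk lists lead the gland panel, and neuropeptide and muscle lists, at 63.6% and 60.8%, lead the ganglia panel.

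Lipid synthesis genes were called in both directions, each more often than clusters at large. Of 252 clusters 195 were tested, 40 were called higher in the gland and 35 higher in the ganglia, and 58 had no count in at least 1 of the tissues. The median was 0.40, or 0.37 with absent ones at their bound. The median level of those called higher in the gland was 5.16 CPM there, and of those called higher in the ganglia 31.2 CPM there. Fatty acid synthase-like of 5513 bases, which builds long-chain fatty acids, had 0.588, 0.479 and 2.03 CPM in gland libraries 1, 2 and 3, against 2207, 1141 and 4022 CPM in ganglia libraries 1, 2 and 3 (log2 difference -11.23 ± 1.44, adjusted p = 0.000255). Elongation of very long chain fatty acids protein 1 of 2069 bases had 0.196, 0 and 0 CPM in gland libraries 1, 2 and 3, against 1496, 426 and 1177 CPM in ganglia libraries 1, 2 and 3 (log2 difference -13.75 ± 1.47, adjusted p = 6.29e-05). The cluster of that name of 504 bases had the largest fitted difference towards the ganglia of all described clusters at 20 CPM or more (adjusted p = 6.25e-05). It had 1 against 28566 counts in gland and ganglia, a ratio of ganglia over gland after scaling to library size of 33745 (95% counting interval 6056 to 1332890.0). The cluster of that name of 2520 bases had 0 CPM in the glands and 168, 64.2 and 224 CPM in the ganglia, and an elongase named for protein AAEL008004, of 6239 bases, 6.32, 8.45 and 2.44 CPM in the glands and 1379.6, 494 and 989 CPM in the ganglia. Elongases named protein 7-like and protein 7, of 2239 and 557 bases, had 0 CPM in the glands and 139, 24.2 and 89.5 CPM in the ganglia, and 0 CPM in the glands and 73.6, 19.2 and 103 CPM in the ganglia. Abhydrolase domain-containing protein 11, a mitochondrial hydrolase outside the list, ranked among these largest fitted differences with 0 CPM in the glands and 109, 45.9 and 197 CPM in the ganglia. The summed share was 0.196, 0.301 and 0.330% of counts in the glands and 0.882, 0.538 and 1.43% in the ganglia. Ganglia library 3 was the highest and library 2 the lowest of the ganglia, above every gland. With 1 library left out, 30 to 33 were called higher in the ganglia, while those higher in the gland numbered 17, 17 and 13 without ganglia 1, 2 or 3 and 26 without gland 2.

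Cytochrome P450s, oxidases of foreign compounds and hormones, were called higher in the ganglia in many clusters. Of 280 P450 clusters 231 were tested, 54 were called higher in the ganglia (23.4%) and 7 higher in the gland (3.03%), with a median of -0.93, or -0.94 with absent ones at their bound. Cytochrome P450 2J6 had 3.92, 9.46 and 6.92 CPM in gland libraries 1, 2 and 3, against 325, 235 and 91.6 CPM in ganglia libraries 1, 2 and 3 (log2 difference -5.0 ± 0.84, adjusted p = 0.00137). Cytochrome P450 2C20 of 2403 bases had 5.49, 7.63 and 8.07 CPM in gland libraries 1, 2 and 3, against 258, 114 and 198 CPM in ganglia libraries 1, 2 and 3 (log2 difference -4.75 ± 0.92, adjusted p = 0.00371). Cytochrome P450 2J2 of 1773 bases had 8.28, 14.9 and 22.5 CPM in the glands and 204, 153 and 65.8 CPM in the ganglia (log2 difference -3.21 ± 0.73, adjusted p = 0.00952). Cytochrome P450 2C31 of 1950 bases was nearly level among the ganglia, with 8.92, 14.3 and 10.6 CPM in the glands and 102, 96.4 and 93.7 CPM in the ganglia (log2 difference -3.10 ± 0.46, adjusted p = 0.00047). None of these overlapped between the tissues. The most abundant member was mitochondrial P450 302a1, a late enzyme of ecdysone synthesis in insects, with 764, 1446 and 5189 CPM in gland libraries 1, 2 and 3, against 26.9, 182 and 29.1 CPM in ganglia libraries 1, 2 and 3 (log2 difference 4.96 ± 1.89, adjusted p = 0.102, not called). The summed shares of the list overlapped, at 0.207, 0.306 and 0.612% of counts in the glands and 0.264, 0.279 and 0.291% in the ganglia. The calls higher in the ganglia numbered 29 without ganglia 1, 34 without ganglia 3, 31 without gland 1, 34 without gland 2 and 31 without gland 3, and the 7 higher in the gland 2, 0 and 0 without ganglia 1, 2 or 3 and 3 without gland 1.

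Few clusters for metal handling were called between the exposed tissues. Of 15 metallothionein and ferritin clusters 14 were tested, 1 was called higher in the ganglia and none higher in the gland, with a median of -0.77, or -0.78 with absent ones at their bound. That one was ferritin, spleen middle subunit, an iron store, with 199, 329.9 and 299 CPM in gland libraries 1, 2 and 3, against 1925, 1630.0 and 1373 CPM in ganglia libraries 1, 2 and 3 (log2 difference -2.57 ± 0.43, adjusted p = 0.00122). Soma ferritin of 3041 bases was the most abundant of the list, with 964, 1231 and 1341 CPM in gland libraries 1, 2 and 3, against 3553, 2117 and 2125 CPM in ganglia libraries 1, 2 and 3 (log2 difference -1.14 ± 0.44, adjusted p = 0.101, not called). Its groups did not overlap. Of 35 zinc, copper and iron transporter clusters 31 were tested, 2 were called higher in the gland and 1 higher in the ganglia, near the background, with a median difference of 0.00, or 0.07 with absent ones at their bound. Zinc transporter ZIP13-like was higher in the ganglia, with 13.6, 16.6 and 10.3 CPM in gland libraries 1, 2 and 3, against 43.1, 66.2 and 54.1 CPM in ganglia libraries 1, 2 and 3 (log2 difference -2.01 ± 0.34, adjusted p = 0.00128). Zinc transporter ZIP3-like was higher in the gland, with 19.7, 39.4 and 22.5 CPM in gland libraries 1, 2 and 3, against 7.40, 6.13 and 7.93 CPM in ganglia libraries 1, 2 and 3 (log2 difference 1.93 ± 0.36, adjusted p = 0.00254). Zinc transporter 8-like was called higher in the gland with 5.98, 4.36 and 23.8 CPM in the glands and 0.694, 0.116 and 0.476 CPM in the ganglia, and lost the call without ganglia 1, ganglia 2, ganglia 3 or gland 3 (adjusted p up to 0.104).

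Glutathione enzymes had 37 clusters tested from 48. Of these, 4 (10.8%, against 6.04% of all clusters) were called higher in the ganglia and 1 (2.7%, against 5.48%) higher in the gland. Glutathione S-transferase Mu 1 of 1243 bases had 40.6, 84.1 and 80.2 CPM in gland libraries 1, 2 and 3, against 242, 201 and 176 CPM in ganglia libraries 1, 2 and 3 (log2 difference -1.60 ± 0.49, adjusted p = 0.0444), a call lost without any 1 of the 6 libraries (adjusted p up to 0.137). Clusters of that name of 836 and 1129 bases had 3.72, 3.57 and 5.83 CPM in the glands and 30.8, 25.5 and 19.5 CPM in the ganglia, and 1.57, 5.06 and 6.04 CPM in the glands and 29.5, 9.36 and 12.1 CPM in the ganglia. Their calls were lost without ganglia 1, ganglia 2, gland 1, gland 2 or gland 3 (adjusted p up to 0.0829) for the one of 836 bases and without ganglia 1, gland 1 or gland 2 (adjusted p up to 0.192) for the other. The list kept 1 to 2 calls higher in the ganglia without ganglia 1, ganglia 2, gland 1 or gland 2. Glutathione S-transferase 1 of 1261 bases was the one higher in the gland, with 5.0, 4.79 and 3.53 CPM in the glands and 0.154, 0.173 and 0.264 CPM in the ganglia (log2 difference 4.43 ± 0.79, adjusted p = 0.00179). Of 34 tested antioxidant enzyme clusters, from 53, 0 were called in edgeR, against 1 higher in the gland and 4 higher in the ganglia in DESeq2. Without adjustment, 3 above and 4 below 0 had a p under 0.05 in edgeR. Copper-zinc superoxide dismutase, which removes superoxide, had 26.8, 109 and 123 CPM in gland libraries 1, 2 and 3, against 601, 217 and 259 CPM in ganglia libraries 1, 2 and 3 (log2 difference -2.06 ± 0.69, adjusted p = 0.0623, not called). The gland values lay below the ganglia values. ABC transporters, pumps that export many compounds, had 112 clusters tested from 189. Calls higher in the gland numbered 8 (7.14%, against 5.48% of all clusters) and higher in the ganglia 16 (14.3%, against 6.04%). Of these, 3, 3 and 2 were called higher in the gland without ganglia 1, 2 or 3 and 5 without gland 2, which also left 9 higher in the ganglia.

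Heat shock proteins had 52 clusters tested from 62, with a median of 0.67. Of these, 6 (11.5%, against 5.48% of all clusters) were called higher in the gland and 4 (7.69%, against 6.04%) higher in the ganglia. Heat shock protein beta-1-like of 899 bases, a small chaperone, had 51.6, 56.0 and 59.3 CPM in gland libraries 1, 2 and 3, against 571, 345 and 248 CPM in ganglia libraries 1, 2 and 3 (log2 difference -2.80 ± 0.58, adjusted p = 0.00477). Heat shock protein beta-1 of 937 bases was higher in the gland, with 41.9, 35.3 and 83.0 CPM in the glands and 9.56, 3.41 and 6.82 CPM in the ganglia (log2 difference 3.02 ± 0.89, adjusted p = 0.0385), but not without any 1 of the 6 libraries (adjusted p up to 0.136). Proteasome subunits had 4 of 42 tested clusters (9.52%, against 6.04% of all clusters) called higher in the ganglia, and 35 of 42 differences below 0. All 4 were named as non-ATPase subunits of the regulatory particle that feeds the proteasome. Subunit 6 had 66.1, 85.8 and 111 CPM in gland libraries 1, 2 and 3, against 281, 198 and 165 CPM in ganglia libraries 1, 2 and 3 (log2 difference -1.29 ± 0.34, adjusted p = 0.0198), a call lost without ganglia 1, ganglia 2, gland 1 or gland 2 (adjusted p up to 0.115). Subunit 12-like had 73.0, 75.7 and 61.3 CPM in gland libraries 1, 2 and 3, against 189.6, 175 and 138 CPM in ganglia libraries 1, 2 and 3 (log2 difference -1.26 ± 0.27, adjusted p = 0.00621). The summed proteasome share was 0.210, 0.226 and 0.262% of counts in the glands and 0.341, 0.337 and 0.334% in the ganglia. The proteasome list kept 1 call without ganglia 1, ganglia 2 or gland 1, and 2 without gland 2 or 3. The heat shock list kept 2 calls higher in the gland without ganglia 2 or 3 and 3 without ganglia 1 or gland 3.

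Respiratory chain transcripts had differences mostly below 0 and few calls. Of 102 clusters 76 were tested, 71 had differences below 0, 2 were called higher in the ganglia and none higher in the gland, with a median of -0.73. Cytochrome c oxidase subunit II had 7037, 7189 and 11503 CPM in gland libraries 1, 2 and 3, against 24008, 13064 and 12143 CPM in ganglia libraries 1, 2 and 3 (log2 difference -0.94 ± 0.45, adjusted p = 0.181, not called). Cytochrome b had 2956, 3199 and 4469 CPM in the glands and 12227, 7058 and 5747 CPM in the ganglia (log2 difference -1.24 ± 0.45, adjusted p = 0.0797). A single cluster, which matches the mitochondrial genome of this species, held 9.43, 8.89 and 9.84% of counts in the glands and 20.3, 19.5 and 18.4% in the ganglia. Those groups did not overlap. With any 1 of the 6 libraries left out, 0 or 1 of the 2 calls were left. Glycolysis and citric acid cycle clusters had 3 called higher in the gland and 1 higher in the ganglia of 57 tested from 89, near or under the background. They numbered 0 or 1 higher in the gland without ganglia 1, 2 or 3 or gland 2, and 0 higher in the ganglia without any 1 of the 6 libraries.

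Cell division genes were higher in the gland in part. Of 49 DNA replication and cell cycle clusters 42 were tested, 38 had differences above 0 and 12 were called higher in the gland, with a median of 1.49. G2/mitotic-specific cyclin-B-like had 86.3, 90.8 and 329 CPM in gland libraries 1, 2 and 3, against 3.78, 12.4 and 1.16 CPM in ganglia libraries 1, 2 and 3 (log2 difference 4.86 ± 1.31, adjusted p = 0.0278). Gland library 3 was the highest by far, and the call was lost without ganglia 1, ganglia 3 or gland 3 (adjusted p up to 0.11). Germline and yolk names, with 69 tested from 76, moved with them. Of these, 12 (17.4%, against 5.48% of all clusters) were called higher in the gland and 2 (2.9%, against 6.04%) higher in the ganglia. Piwi-like protein 1, a guardian against transposons in germ cells, had 114, 147 and 433 CPM in gland libraries 1, 2 and 3, against 45, 37.8 and 30.4 CPM in ganglia libraries 1, 2 and 3 (log2 difference 2.62 ± 0.57, adjusted p = 0.007). The summed shares of the germline list were 0.0724, 0.0609 and 0.137% of counts in the glands and 0.0291, 0.0384 and 0.0396% in the ganglia, and its part in the cell cycle result was not tested. The cell cycle list kept 4, 6 and 2 calls without ganglia 1, 2 or 3 and 2 without gland 3, and the germline list 3, 4 and 3 without those ganglia, 4 without gland 1 and 2 without gland 3.

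The tissue difference was also measured in untreated spiders. Its group means come from other libraries, but the filter and the estimate of spread are shared with the cadmium comparison. The calls of these comparisons are therefore not independent. Of the same clusters 5325 (10.3%) were called, 2031 higher in the untreated gland (3.91%) and 3294 higher in the untreated ganglia (6.35%). The clusters called higher in the gland in both numbered 1326, which is 46.6% of the cadmium list and 65.3% of the untreated list. Those called higher in the ganglia in both numbered 2126, 67.8% of the cadmium list and 64.5% of the untreated list. No cluster was called in opposite directions. Of the clusters called with cadmium, 97.8% of those higher in the gland and 99.4% of those higher in the ganglia had the same sign in untreated spiders. The same share over all clusters tested is not given here. For the gland calls the median difference was 5.41 with cadmium and 3.20 without, and for the ganglia calls -4.53 and -3.65. These clusters were chosen by their cadmium values.

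The test of whether the tissue difference itself is another with cadmium than without called 0 clusters (0.0%) in edgeR, with 2097 at an unadjusted p under 0.05, and 113 in DESeq2. The values of the silk lists are nonetheless given side by side. Aggregate clusters had a median difference of 8.54 with cadmium and 2.49 without, with 11 and 1 of 13 called higher in the gland. Aggregate spidroin 1 of 3505 bases had 495, 170.1 and 889 CPM in untreated glands and 43.4, 252 and 10.1 CPM in untreated ganglia (log2 difference 2.35 ± 1.04, adjusted p = 0.156). The untreated glands lay below all cadmium glands and the ganglia of the 2 exposures overlapped. The difference of differences was 4.54 ± 1.46 (unadjusted p = 0.00732, not called). The summed aggregate share in untreated spiders was 0.137, 0.0398 and 0.217% of counts in the glands and 0.0142, 0.0555 and 0.00292% in the ganglia. Minor ampullate clusters had a median of 8.0 with cadmium and 2.76 without. Aciniform clusters had 10.97 and 8.80, with 14 of 15 called in each. Pyriform clusters were nearly level, at 8.31 with cadmium and 8.04 without, with 4 of 5 called in each. Major ampullate clusters had 1.47 and 0.23, with 8 and 1 of 68 called. Flagelliform clusters had -0.59 and 0, and the remaining silk proteins 1.10 and -0.05. Aciniform spidroin of 1277 bases had 23745, 112653 and 38721 CPM in untreated glands and 28.2, 227 and 17.5 CPM in untreated ganglia (log2 difference 9.33 ± 1.58, adjusted p = 0.00203). The untreated glands spanned a wider range for it than the exposed ones. Muscle clusters had a median of -4.50 with cadmium and -2.77 without, with 62 and 48 of 102 called higher in the ganglia, and held 1.03, 0.514 and 0.419% of counts in the glands and 10.9, 6.33 and 7.09% in the ganglia of untreated spiders. Neuropeptides had -5.13 and -5.32, with 42 and 38 of 66 called.

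**Figure D5:**
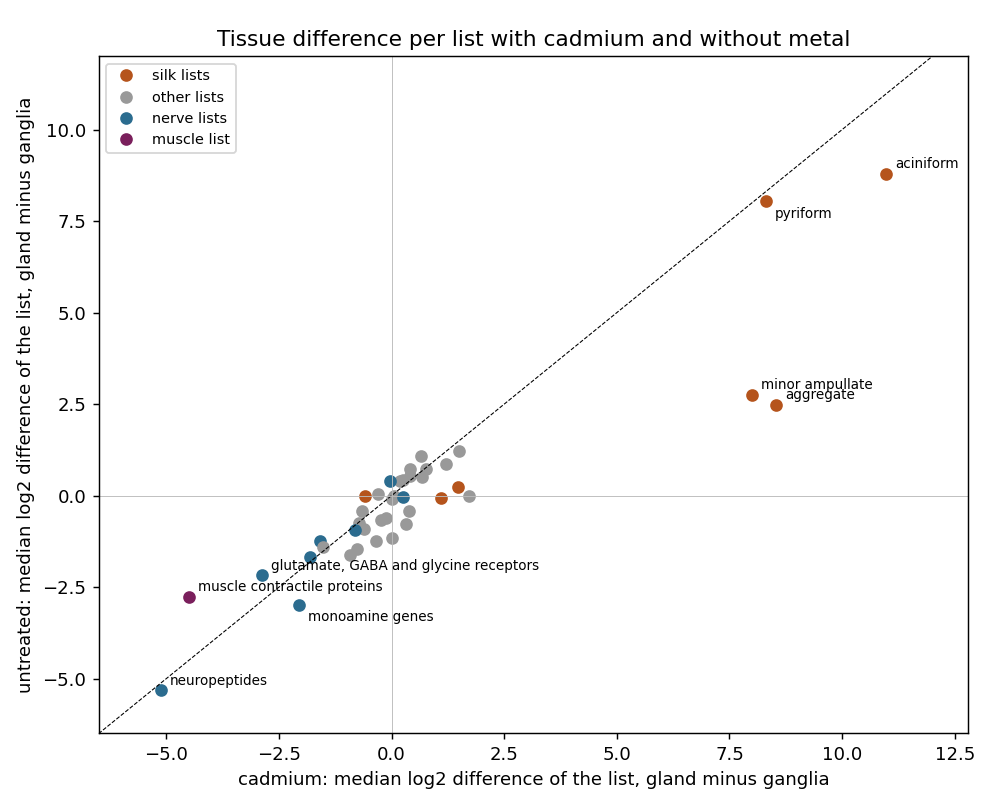
Median log2 difference gland minus ganglia of each gene list with cadmium (horizontal axis) and without metal (vertical axis), with a dashed line of equality. Most lists lie near the line, while aggregate and minor ampullate spidroins lie to the right of it, at 8.54 and 8.0 with cadmium against 2.49 and 2.76 without.

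Single genes with the smallest unadjusted p for that difference of differences were not called either. Carcinine transporter, a carrier of a histamine conjugate in fly eyes, had 83.5, 511 and 216 CPM in the glands and 29.9, 22.2 and 36.1 CPM in the ganglia with cadmium (log2 difference 3.20 ± 0.55, adjusted p = 0.00138), and 27.1, 18.1 and 23.9 CPM in untreated glands and 47.5, 48.9 and 33.7 CPM in untreated ganglia. The difference of differences was 4.11 ± 0.74 (unadjusted p = 3.34e-05, not called). Protein fork head, a transcription factor of silk and salivary glands in insects, had 53.0, 112 and 37.8 CPM in the glands and 8.87, 6.82 and 7.67 CPM in the ganglia with cadmium (log2 difference 3.12 ± 0.41, adjusted p = 0.000179), and 16.3, 25.2 and 22.3 CPM in untreated glands and 11.9, 14.4 and 19.3 CPM in untreated ganglia. The difference of differences was 2.63 ± 0.54 (unadjusted p = 0.000137, not called). Troponin T of 1868 bases, the tropomyosin-binding troponin, had 4.36, 6.76 and 5.70 CPM in the glands and 542, 416 and 399 CPM in the ganglia with cadmium, and 46.1, 12.1 and 26.2 CPM in untreated glands and 352, 178 and 166 CPM in untreated ganglia, with a difference of differences of -3.29 ± 0.69 (unadjusted p = 0.000183, not called).

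Under lead, 3256 clusters (6.27%) were called, 1336 higher in the gland (2.57%) and 1920 higher in the ganglia (3.7%). Under both metals, 3255 (6.27%) were called, 1011 higher in the gland (1.95%) and 2244 higher in the ganglia (4.32%). These rest on 2 distinct libraries per tissue. Neither test of the cadmium difference against these called a cluster (0.0%), with 2535 and 4567 at an unadjusted p under 0.05, and 193 and 544 called by DESeq2. The silk make-up of the glands differed in level. Aciniform spidroins held 11.1, 8.13 and 8.68% of counts in the cadmium glands, 3.41 and 9.96% in the lead glands and 0.0680 and 0.356% in the glands with both metals. Major ampullate spidroins held 1.02, 1.26 and 2.23% in the cadmium glands, 10.8 and 8.85% in the lead glands and 11.8 and 7.18% in the glands with both metals. The cadmium glands lay above the glands with both metals in aciniform silk and below them and the lead glands in major ampullate silk. These shares were not tested. Library preparation may differ between the groups with and without lead, and such a difference could not be told apart from the metal.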

How the data were processed

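Messenger RNA of Araneus ventricosus gland and ganglia was sequenced after extraction with an RNeasy kit and library preparation with a SMARTER kit, per the labels. The authors deposited a table of expected counts per assembled cluster (95.0% of them whole numbers) and a table of FPKM (scaled to length and depth, a unit read from the values, since its header names none), with cluster lengths. The assembler, aligner, counter and annotation steps were not given in the sources used here. Members and gene lists were chosen with earlier results of these data known.

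Expected counts were rounded and fitted with edgeR 4.0.16 (R 4.3.3; filterByExpr, TMM scaling, robust glmQLFit, glmQLFTest), 1 mean per group, over the 20 distinct libraries. In 4 groups a pair of columns held equal counts and was counted once. Of 142219 clusters 51904 passed the filter and were tested. CPM use TMM-scaled totals, ± after a CPM or FPKM value is the SD over 3 libraries and after a log2 difference the SE. That SE is the absolute log2 difference over the square root of the F value of its test, not a fitted error. FPKM served only for levels per length. Interactions compare the tissue difference between exposures. Clusters named in the text follow a rule: the 10 largest non-overlapping called differences in each direction at 20 CPM or more, the leading called and most abundant members of each list, the most abundant described clusters and those with the smallest interaction p. Count ratios carry 95% exact intervals for counting error only, and a tissue at 0 is set at 3 counts over its libraries. Medians with absent clusters at their bound leave out those with 3 or fewer counts in the other tissue. Clusters hitting other organisms held 0.133% of gland and 0.0533% of ganglia counts. Alternatives were DESeq2 1.42.0, RLE scaling, other filters, other sample sets, a replicate block and each library left out. Scripts were tested on simulated data. Tables and figures used Python 3.11.15, pandas 2.3.3, numpy 2.4.6, scipy 1.17.1 and matplotlib 3.10.9.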

Additional observations from a re-analysis of the deposited data

How the results depend on the processing

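The 5977 clusters called between cadmium gland and ganglia became 9868 with DESeq2, 9979 with only the 6 cadmium libraries and 1881 when tested against a 4-fold difference, and lay between 3229 and 3963 with each library left out. RLE scaling, the other filters, the 12 libraries without lead and removal of silk and the mitochondrial cluster moved that count by less than 1.5 times. The untreated count of 5325 became 8090 with no filter on low counts and 9530 with DESeq2, the lead count of 3256 became 6283 with DESeq2, and the count of 3255 for both metals became 5275 with no filter and 7018 with DESeq2. The 3 interaction counts of 0 became 156, 217 and 1071 with no filter and 113, 193 and 544 with DESeq2, against untreated, lead and both metals. The count against untreated stayed 0 with each cadmium and untreated library left out, which was not run for the other two. Same-numbered gland and ganglia libraries had correlations of their deviations of -0.196, 0.0477 and -0.217 with cadmium. Those of different numbers ranged from -0.169 to 0.269. With 3 libraries per tissue these values cannot tell whether same-numbered libraries came from the same spiders. With the replicate number as a block the counts were 3228 for cadmium, 2317 for untreated, 1503 for lead and 1509 for both metals, and 2 for cadmium against both metals. The cause of these shifts was not tested.

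Of 208 clusters named by the rule and not set aside from printing, 170 were called. Among the 170, 110 were called with every library left out in turn and 167 with DESeq2 (3 had no adjusted p there). Against a 4-fold difference 84 were not called. No value reversed its direction among those printed. List medians shifted by at most 0.0352 with RLE scaling. The alternatives for lead, for both metals, for the interactions with these and for list counts were chosen after seeing the data. Counts limit clusters near 0, clusters of 1 name may be parts of 1 gene, and 3224 of the 5977 called clusters carry no informative name.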
